A study of Mus musculus with 9 samples.

Results

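The T cell identity and receptor signalling module was followed in splenic Gr-1+ cells of mice after bone marrow transplantation. It holds 33 genes that mark T cells or carry the signal of their antigen receptor, and its members were all probes whose platform gene symbol is one of the 33. In the annotation used here 30 genes had a probe, 66 probes in all of 45281 on the array. A background limit, a signal of 14.31, was passed on at least 3 of the 9 arrays by 42 of these probes. The limit is the 95th percentile of 1617 probes whose genes, sensory receptors and keratin-associated proteins, should be silent here. The passing probes measured 26 of the 33 genes, out of 10871 genes tested in all.

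Gr-1+ (Ly6G+) cells, which are mostly neutrophils, had been purified with magnetic beads on day 7 after transplantation, and RNA was extracted when purity was above 97%. The question of the study was which pathways IDO1, the enzyme that starts tryptophan breakdown, regulates in myeloid cells. There were 3 groups of 3 Illumina mouse BeadChip arrays. The syngeneic group came from C57BL/6 (B6) hosts without graft-versus-host disease, the WT group from C57BL/6 (B6) hosts of allogeneic marrow, and the KO group from hosts of strain B6.129-Ido1tm1Alm/J (IDO KO). All 3 groups had been transplanted. Donor strain, age and sex were not given in the sources used here. Whether replicate arrays stand for different mice is not stated, so each p-value reflects spread between arrays that may be technical alone.

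The antigen receptor of a T cell recognises peptide but cannot signal alone. It depends on the CD3 chains, whose tails are phosphorylated by Lck and then bind the kinase Zap70, which phosphorylates the adaptor Lat. Its genes are widely used as marks of T lineage cells.

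The KO arrays lay on a chip of their own, whereas the syngeneic and WT arrays shared the other, so a difference between KO and either group cannot be told apart from one between chips. Ido1, the targeted gene, was dim: its signal was 24.6, 33.8 and 20.0 on the WT arrays, from 3.9 to 13.3 on the syngeneic arrays and from -8.1 to 0.6 on the KO arrays, so 3 arrays, all WT, passed the limit. WT replicate 2 stood apart from its group, with a mean correlation over genes of 0.919 with WT replicates 1 and 3, against 0.998 for each syngeneic array. The sorted population's markers were present: the summed signal of the neutrophil list lay between 225122 and 245856 on 8 arrays and was 72158 in WT replicate 2. All 13 neutrophil markers that passed the limit were lowest in that array, by very different amounts. Retnlg was at 295 there against 27003 to 31679 elsewhere, Lcn2 at 13752 against 37896 to 42818, and S100a8 at 23175 against 24401 to 31801. Ly6g had no probe in the annotation used here.

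WT replicate 2 was the highest of the 9 arrays for 25 of the 26 members, a pattern shown by 32.2% of all genes tested. WT replicates 1 and 3 both lay below every syngeneic array for 18 members (26.8% of all genes). All 3 KO arrays lay above WT replicates 1 and 3 for 21 members (22.3%) and above every syngeneic array for 17 (24.9%). The whole order, WT replicates 1 and 3 below syngeneic, syngeneic below KO, and KO below WT replicate 2, held for 15 members and for 0.837% of all genes. In RNA of whole populations, fewer cells of a type and less RNA per cell cannot be told apart.

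**Figure D1:**
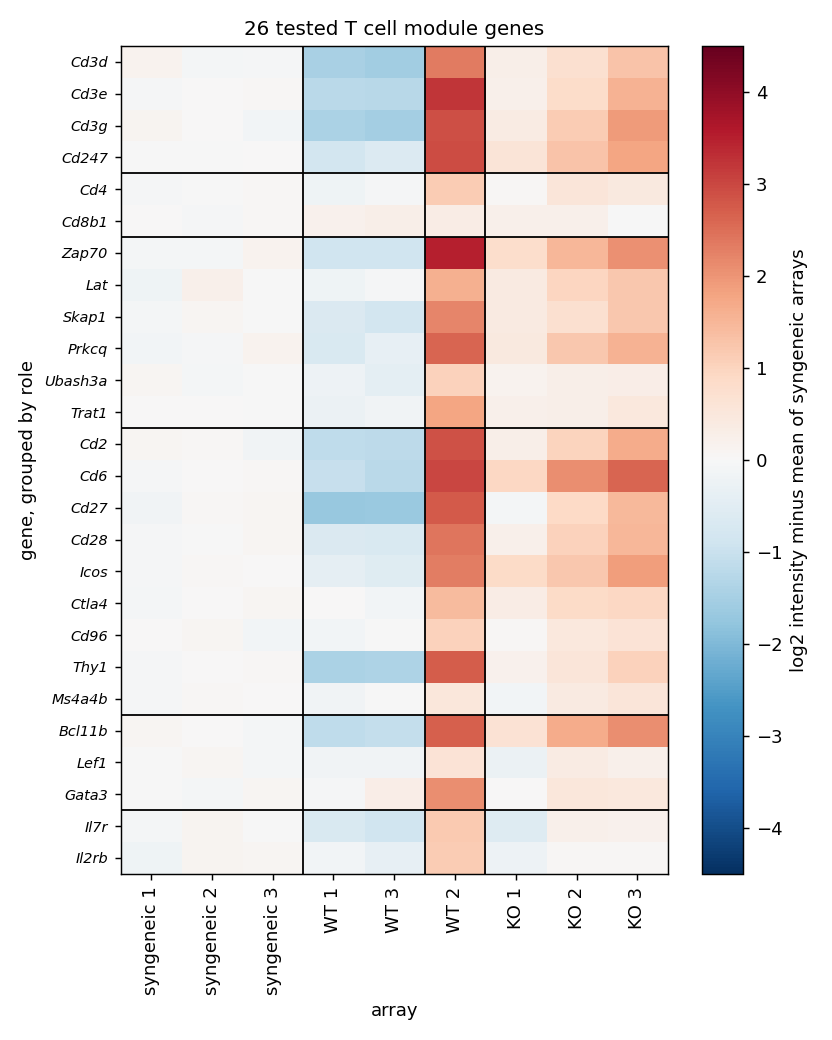
Log2 intensity (normexp with an offset of 50, quantile-normalized) of the 26 tested members on each array, minus the mean of the 3 syngeneic arrays, with genes in rows grouped by role. WT replicate 2 is the highest array for 25 members, and Cd8b1 is close to 0 throughout.

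The planned fit over all 9 arrays called none of the 26 members. In limma with Benjamini-Hochberg adjustment, 0 were called higher in KO vs WT (1.18% of all genes), 0 lower in WT vs syngeneic (5.64%) and 0 higher in KO vs syngeneic (5.09%); 0 were called in the opposite directions. An unadjusted p under 0.05 was found for 0, 1 and 0 members. The median log2 fold changes were 0.55, 0.26 and 0.75, against -0.02, 0.04 and 0.02 over all genes. The SD between the 3 WT arrays had a median of 1.65 on the log2 scale over the members, compared with 0.09 between syngeneic and 0.44 between KO arrays.

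Without WT replicate 2, which was known to stand apart before this fit was made, 21 members were called higher and 0 lower in KO vs WT (10.2% of all genes higher; median log2 fold change of the members 1.56). In WT vs syngeneic 13 were lower and 0 higher (14.9% of all genes lower; median -0.61), and in KO vs syngeneic 20 were higher and 0 lower (19.3% of all genes higher). The comparison of KO with syngeneic arrays uses no WT array, and on those 6 arrays alone 19 members were called higher (17.9% of all genes). The first pair of comparisons then rests on 2 WT arrays. Trat1, Ctla4, Cd96 and Lef1 were the 4 members above the limit on no syngeneic array and in neither WT replicate 1 nor 3. They were tested only because of KO arrays and WT replicate 2, so calls higher in KO among them are no support. Cd4, Lat and Gata3 also needed KO arrays to reach 3 arrays above the limit, so calls higher in KO among them are no support either. With limma's neqc correction from the deposited detection p-values, the calls without WT replicate 2 fell to 2, 0 and 1. The adjusted p-values given for single genes from here on are limma's, without WT replicate 2, unless stated otherwise, and fold changes are on the scale of intensities with an offset of 50, which understates the change of dim genes.

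**Figure D2:**
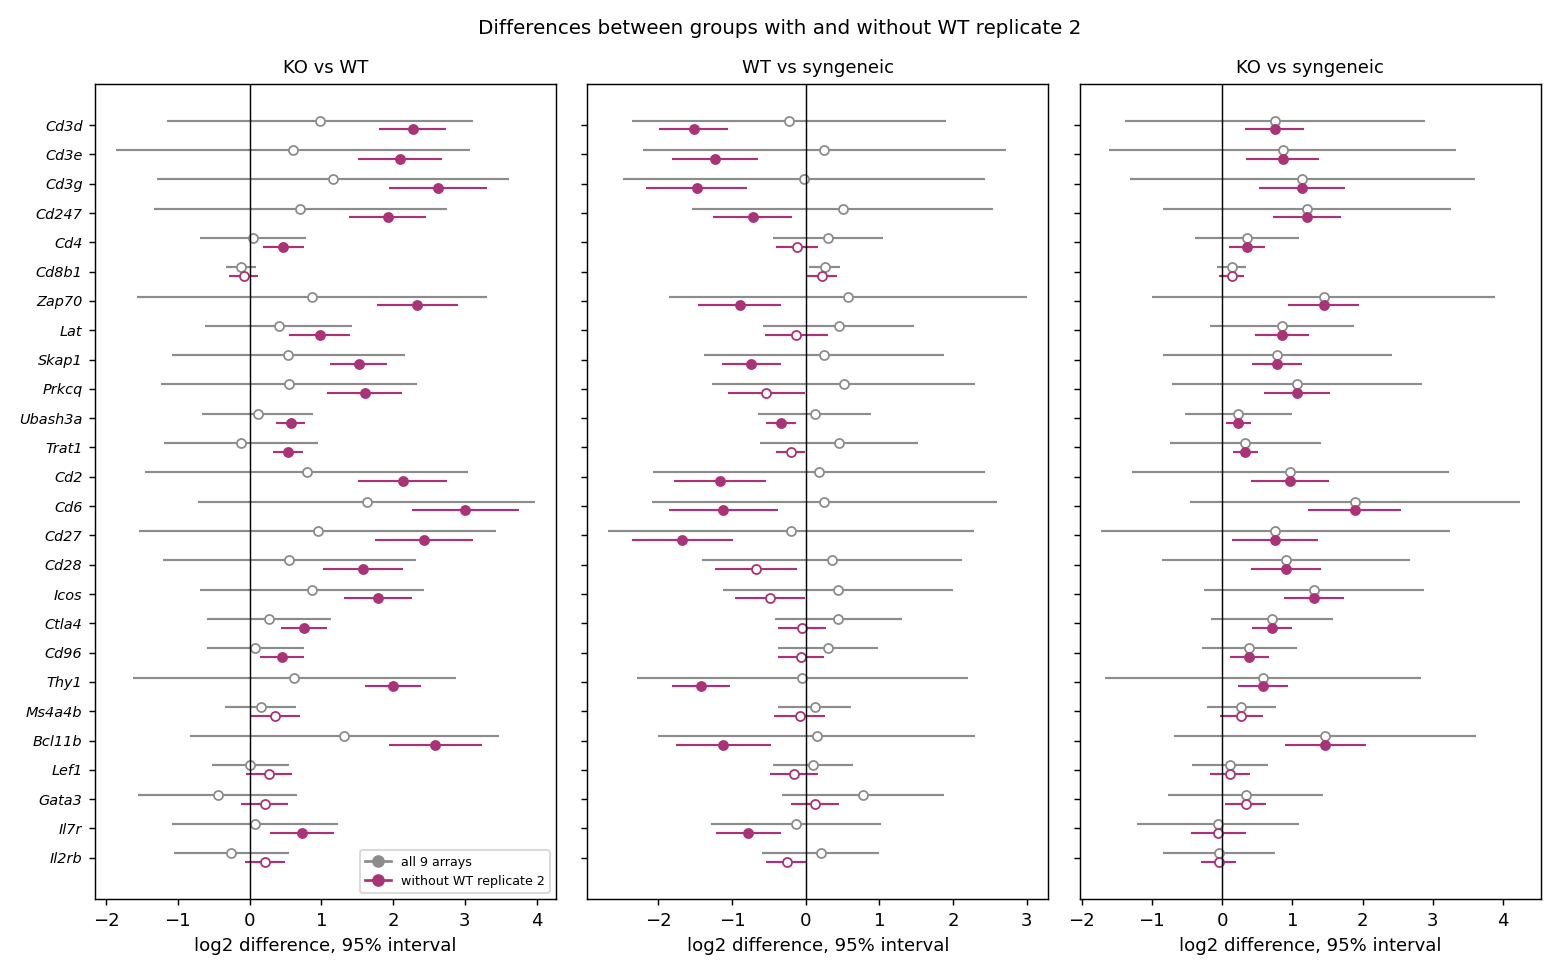
Log2 difference between groups with its 95% interval for the 26 tested members, from the fit over all 9 arrays (grey) and without WT replicate 2 (purple). Filled points have an adjusted p under 0.05: 0 with all arrays, and without WT replicate 2, 21 in KO vs WT, 13 in WT vs syngeneic and 20 in KO vs syngeneic.

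The module holds 4 CD3 chains. Cd3d, Cd3e and Cd3g encode the chains that flank the receptor, and Cd247 the zeta chain, which carries most of its phosphorylation sites. Cd3d, Cd3e and Cd3g lie together on chromosome 9, and the starts of Cd3d and Cd3g, which run in opposite directions, are 1355 bases apart. The 250 bases before each start are shown because these 3 genes moved together (RefSeq, GRCm38.p6, 5′ to 3′ on the strand of the gene). Capitals mark 3 core motifs searched on both strands: CACCTG of E-box factors, AGGAAG of ETS factors and TGTGGT of RUNX factors.
Cd3d, chr9:44981536-44981785, plus strand: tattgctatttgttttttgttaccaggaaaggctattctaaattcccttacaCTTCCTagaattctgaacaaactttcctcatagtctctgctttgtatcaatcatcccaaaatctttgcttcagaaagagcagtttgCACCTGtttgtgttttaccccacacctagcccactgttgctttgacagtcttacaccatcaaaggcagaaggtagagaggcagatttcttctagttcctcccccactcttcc
Cd3e, chr9:45009612-45009861, minus strand: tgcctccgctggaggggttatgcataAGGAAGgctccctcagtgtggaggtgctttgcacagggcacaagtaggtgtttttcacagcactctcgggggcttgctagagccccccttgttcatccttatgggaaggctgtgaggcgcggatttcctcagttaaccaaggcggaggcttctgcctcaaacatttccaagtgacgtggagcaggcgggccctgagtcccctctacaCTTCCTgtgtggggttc
Cd3g, chr9:44980432-44980681, minus strand: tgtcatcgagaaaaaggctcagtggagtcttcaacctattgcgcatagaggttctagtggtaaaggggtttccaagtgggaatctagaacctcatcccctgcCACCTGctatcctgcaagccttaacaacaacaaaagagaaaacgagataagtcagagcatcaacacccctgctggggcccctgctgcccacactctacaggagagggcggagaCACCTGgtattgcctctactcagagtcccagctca
The Cd3d window holds 1 E-box and 1 ETS match, that of Cd3e 2 ETS matches and that of Cd3g 2 E-box matches, and none holds the RUNX letters. In all RefSeq promoter windows these letters occur in 17.2%, 29.5% and 14.0% respectively. The 23 member genes with listed promoters have 32 windows, of which 8 hold the E-box, 14 the ETS and 5 the RUNX letters. A match is a description of letters, not of a bound site.

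The signal of Cd3d was 2148, 1845 and 1848 on the syngeneic arrays. It was 656 and 610 in WT replicates 1 and 3, 10184 in WT replicate 2, and 2348, 3223 and 4822 on the KO arrays. The 4 sets did not overlap. Cd3d was higher in KO than in WT by 2.28 ± 0.21 (log2 fold change ± SE, n = 3 KO and 2 WT arrays, adjusted p = 4.05e-05), and fell in WT vs syngeneic by 1.52 ± 0.21 (adjusted p = 0.000223). Its rise in KO vs syngeneic was smaller, 0.75 ± 0.19 (adjusted p = 0.00855). With WT replicate 2 in the fit, KO vs WT was 0.98 ± 0.93 (adjusted p = 0.603).

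Cd3e read 875, 913 and 939 on the syngeneic arrays, 350 and 347 in WT replicates 1 and 3, 9082 in WT replicate 2, and 1072, 1653 and 2788 on the KO arrays. Cd3g was at 1246, 1150 and 1058 in syngeneic cells, at 384 and 354 in WT replicates 1 and 3, at 8941 in WT replicate 2, and at 1495, 2604 and 4551 in KO cells. For both genes the order of the 4 sets was that of Cd3d. Cd247 was at 123, 124 and 126 in syngeneic cells, 42.0 and 56.8 in WT replicates 1 and 3, 1401 in WT replicate 2, and 217, 395 and 587 in KO cells. By their brightest probes, all 4 chains were called in all 3 comparisons without WT replicate 2. Log2 fold changes were 1.93 to 2.62 in KO vs WT and 0.75 to 1.21 in KO vs syngeneic. In WT vs syngeneic they were -1.52 to -0.72. Over all genes, 10.2% were called higher in KO vs WT, 14.9% lower in WT vs syngeneic and 19.3% higher in KO vs syngeneic. In a fit over all passing probes, a dimmer Cd247 probe, ILMN_1256639, was called in none. Its adjusted p was 0.141, 0.676 and 0.187 in KO vs WT, WT vs syngeneic and KO vs syngeneic.

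**Figure D3:**
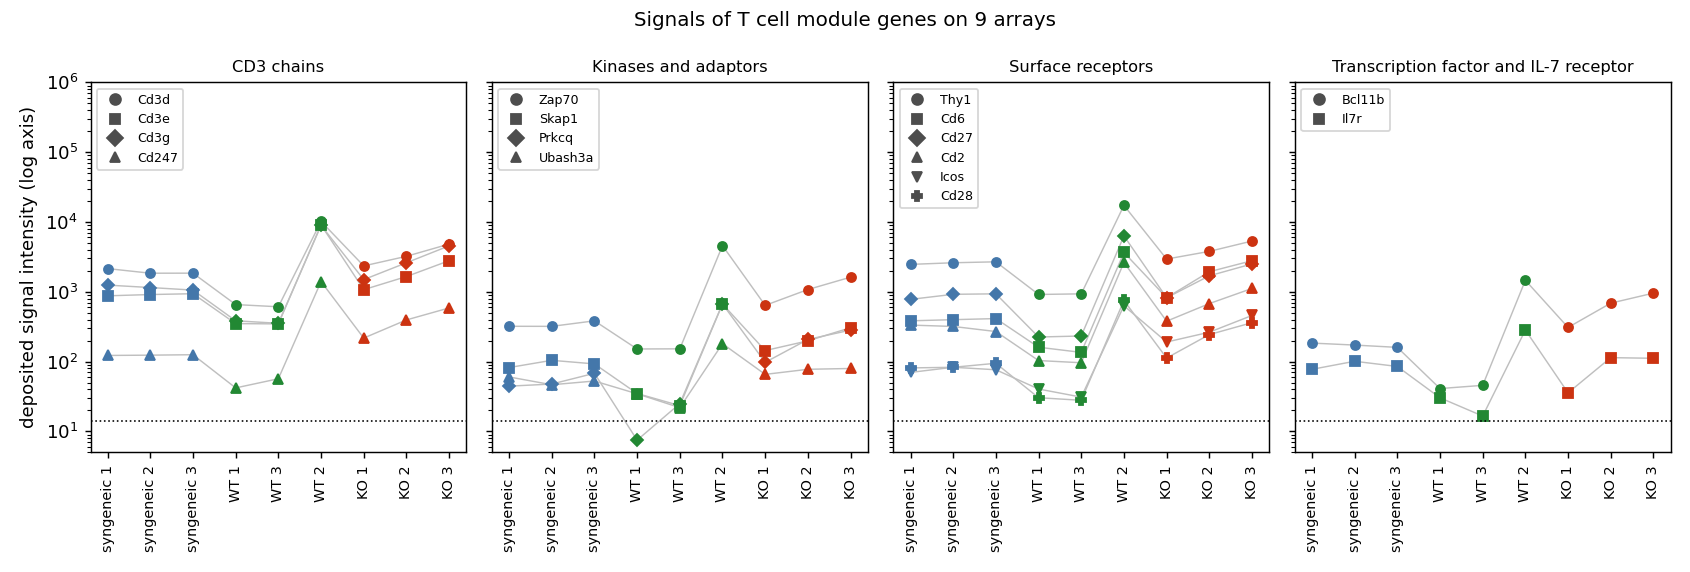
Deposited signal intensity on a log axis for 16 members on each of the 9 arrays (blue syngeneic, green WT, red KO), with the dotted line at the background limit of 14.31 and lines joining the arrays only as a guide. Cd3d runs from 610 in WT replicate 3 to 10184 in WT replicate 2.

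The co-receptors Cd4, Cd8a and Cd8b1 steer T cells to MHC class II or class I. Cd8a had a probe that passed the limit on none of the arrays. Cd4 was dim, at 9.1, 12.2 and 16.3 in syngeneic cells, under the limit in WT replicates 1 and 3, at 109 in WT replicate 2, and at 50.1 and 41.6 in KO replicates 2 and 3, with KO replicate 1 just above the limit. It was called higher in KO vs WT, at least 1.25-fold (adjusted p = 0.0272), since neither WT array passed the limit, and in KO vs syngeneic (0.35 ± 0.12, adjusted p = 0.0336). Cd4 passed the filter only with KO arrays, so these calls were favoured in advance.

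Cd8b1 was measured by 3 passing probes that disagreed. The brightest, ILMN_1257694, stood for the gene and was nearly flat, from 4435 to 5865 over the 9 arrays, with no call in any comparison. ILMN_2741169 read 4419, 4575 and 4513 on syngeneic arrays, 984 and 932 in WT replicates 1 and 3, 15889 in WT replicate 2, and 2036, 3459 and 5567 on KO arrays. ILMN_2664929 had the same shape, from 138 in WT replicate 3 to 3722 in WT replicate 2. Without WT replicate 2, these 2 probes fell in WT vs syngeneic, with log2 fold changes of -2.16 and -1.76 (adjusted p = 9.5e-05 and 4.4e-05). They rose by 1.76 and 1.39 in KO vs WT (adjusted p = 0.00108 and 0.000751). In KO vs syngeneic their log2 fold changes were -0.40 and -0.37, neither of them called (adjusted p = 0.234 and 0.138). Why the probes differ was not tested.

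**Figure D4:**
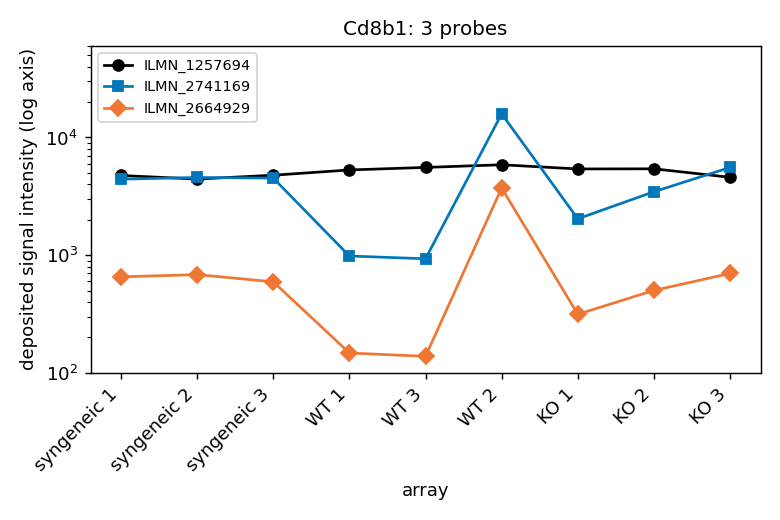
Deposited signal intensity, on a log axis, of the 3 Cd8b1 probes above the limit on each array, with lines joining the arrays only as a guide. ILMN_1257694 stays between 4435 and 5865, while ILMN_2741169 ranges from 932 to 15889.

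Among the proximal kinases and adaptors, 6 of 10 genes were tested, and with all arrays in the fit 0 were called in each comparison. In the fit without WT replicate 2, all 6 were called higher in KO vs WT (10.2% of all genes). All 6 were also called higher in KO vs syngeneic (19.3%), while 3 were called lower in WT vs syngeneic (14.9%). The 6 include Lat and Trat1, whose calls higher in KO were favoured in advance by the filter. Zap70, the kinase that binds phosphorylated CD3 chains, was at 321, 320 and 384 in syngeneic cells, 152 and 152 in WT replicates 1 and 3, 4581 in WT replicate 2, and 639, 1076 and 1619 in KO cells. The KO arrays lay above all syngeneic arrays, and the 2 lower WT arrays below them. Its log2 fold change was 2.34 ± 0.26 in KO vs WT (adjusted p = 0.000107) and -0.90 ± 0.26 in WT vs syngeneic (adjusted p = 0.0211). In KO vs syngeneic it was 1.45 ± 0.23 (adjusted p = 0.00038). The dimmer Zap70 probes ILMN_3005740 and ILMN_1223542 were not called in WT vs syngeneic (adjusted p = 0.132 and 0.759).

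Skap1, an adaptor that links the receptor to integrin adhesion, read 82.2, 104 and 92.7 on syngeneic arrays, 34.9 and 23.4 in WT replicates 1 and 3, 668 in WT replicate 2, and 144, 198 and 306 on KO arrays. Prkcq, the protein kinase C isoform that carries the signal toward NF-κB, was at 44.5, 47.7 and 68.0 in syngeneic cells, 7.5 and 25.0 in WT replicates 1 and 3, 670 in WT replicate 2, and 97.5, 208 and 283 in KO cells. Both followed the order of Zap70. Skap1 fell in WT vs syngeneic (-0.74 ± 0.18, adjusted p = 0.00968), and Prkcq was not called there (-0.54 ± 0.24, adjusted p = 0.116). The dimmer Skap1 probe ILMN_1224032 was called neither there nor in KO vs syngeneic (adjusted p = 0.217 and 0.265). Ubash3a, a negative regulator of receptor signalling, moved less: it was at 46.6 to 60.3 in syngeneic cells, 34.6 and 21.9 in WT replicates 1 and 3, 180 in WT replicate 2 and 65.6 to 79.7 in KO cells. It was called in all 3 comparisons, with 0.57 ± 0.09 in KO vs WT (adjusted p = 0.00143).

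Lat, the scaffold that Zap70 phosphorylates, was dim outside WT replicate 2 and the KO arrays. It read -4.2, 18.4 and 4.1 in syngeneic cells, -3.4 and 2.5 in WT replicates 1 and 3, 151 in WT replicate 2, and 29.0, 73.4 and 98.7 in KO cells. The KO arrays were above all syngeneic arrays, and Lat was at least 1.61-fold higher in KO vs WT (adjusted p = 0.00467). Lat passed the filter only with KO arrays, so its calls higher in KO were favoured in advance. Trat1, an adaptor that stabilises the receptor complex, was under the limit on all syngeneic arrays and in WT replicates 1 and 3, at 186 in WT replicate 2 and at 20.9, 23.2 and 37.5 in KO cells. It was at least 1.16-fold higher in KO vs WT (adjusted p = 0.00214) and at least 1.16-fold higher in KO vs syngeneic (adjusted p = 0.00781). Trat1 entered the test only through KO arrays and WT replicate 2, so these calls were favoured in advance. Txk and Themis did not pass the filter, and Lck and Sh2d1a had no probe in the annotation used here.

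Of the 10 surface receptors, 9 were tested. Without WT replicate 2, 8 rose in KO vs WT (10.2% of all genes) and 8 in KO vs syngeneic (19.3%). In WT vs syngeneic, 4 fell (14.9%). Thy1, the glycoprotein used as a pan-T marker in the mouse, was at 2468, 2604 and 2687 in syngeneic cells, 915 and 934 in WT replicates 1 and 3, 17267 in WT replicate 2, and 2943, 3790 and 5330 in KO cells. The sets did not overlap, and KO vs WT was 2.00 ± 0.18 (adjusted p = 2.83e-05). Its rise over syngeneic cells was 0.58 ± 0.16 (adjusted p = 0.0129).

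Cd6, a receptor that tunes T cell activation, read 384, 399 and 413 on syngeneic arrays, 161 and 136 in WT replicates 1 and 3, 3655 in WT replicate 2, and 823, 1937 and 2790 on KO arrays. Its mean signal in KO cells was 4.64 times that in syngeneic cells. This was the highest ratio among the probes that stand for the 19 members above the limit on all syngeneic arrays. The dimmer Zap70 probe ILMN_1223542 had a ratio of 4.68. The log2 fold change of Cd6 was 3.00 ± 0.34 in KO vs WT (adjusted p = 0.000139) and 1.89 ± 0.30 in KO vs syngeneic (adjusted p = 0.000424). Cd27, a costimulatory receptor of the TNF receptor family, was at 779, 920 and 935 in syngeneic cells, 225 and 233 in WT replicates 1 and 3, 6317 in WT replicate 2, and 822, 1693 and 2508 in KO cells. KO replicate 1 lay among the syngeneic arrays, and the rise in KO vs syngeneic was 0.76 ± 0.28 (adjusted p = 0.0493). Its fall in WT vs syngeneic, -1.67 ± 0.31 (adjusted p = 0.00174), had the greatest size among the probes that stand for the 26 members. The other Cd8b1 probes fell further. The dimmer Cd27 probe ILMN_3052501 was not called in WT vs syngeneic (adjusted p = 0.223).

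Cd2, an adhesion receptor, read 333, 319 and 270 in syngeneic cells, 104 and 96.3 in WT replicates 1 and 3, 2631 in WT replicate 2, and 379, 677 and 1116 in KO cells. Cd28, the main costimulatory receptor, was at 81.2 to 94.6 in syngeneic cells, 30.4 and 27.9 in WT replicates 1 and 3, 751 in WT replicate 2 and 113, 244 and 361 in KO cells. Icos, a related receptor induced on activation, was at 70.0 to 83.0 in syngeneic cells, 40.5 and 31.0 in WT replicates 1 and 3, 630 in WT replicate 2 and 191, 264 and 458 in KO cells. In all 3 genes the KO arrays lay above the syngeneic ones. The log2 fold changes in KO vs syngeneic were 0.97 ± 0.25 for Cd2, 0.91 ± 0.23 for Cd28 and 1.31 ± 0.19 for Icos (adjusted p = 0.00978, 0.00772 and 0.000215). In WT vs syngeneic Cd2 was called lower (adjusted p = 0.00928), whereas Cd28 and Icos were not (adjusted p = 0.0678 and 0.115).

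Ctla4, which opposes Cd28, passed the limit only in WT replicate 2, at 118, and on the KO arrays, at 20.7, 56.7 and 64.2. Cd96, a receptor of T and NK cells, did so in WT replicate 2, at 73.5, and in KO replicates 2 and 3, at 28.6 and 38.1. Ctla4 was at least 1.39-fold higher in KO vs WT (adjusted p = 0.00422) and at least 1.39-fold in KO vs syngeneic (adjusted p = 0.00117). Cd96 was at least 1.1-fold higher in both (adjusted p = 0.0441 and 0.0306). Ctla4 and Cd96 entered the test only through KO arrays and WT replicate 2, so these calls were favoured in advance. Ms4a4b, a membrane protein of T cells, was at most at 33.6 in syngeneic cells, 20.5 and 29.8 in WT replicates 1 and 3, 72.9 in WT replicate 2 and 22.1, 62.1 and 74.5 in KO cells. It was the member whose highest array was KO replicate 3, and it was called in none of the comparisons. Cd5, an inhibitory receptor, did not pass the limit on any array.

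Bcl11b, a transcription factor needed for T cell commitment, read 184, 173 and 160 on syngeneic arrays, 41.1 and 45.7 in WT replicates 1 and 3, 1461 in WT replicate 2, and 309, 687 and 957 on KO arrays. The sets were again in the order of Cd3d, with 2.59 ± 0.29 in KO vs WT (adjusted p = 0.000146). The change was -1.12 ± 0.29 in WT vs syngeneic (adjusted p = 0.0141) and 1.47 ± 0.26 in KO vs syngeneic (adjusted p = 0.000915). The dimmer Bcl11b probe ILMN_2443624 was not called in WT vs syngeneic (adjusted p = 0.841). Gata3, the regulator of type 2 helper cells, was under the limit on all syngeneic arrays, at 1.1 and 20.8 in WT replicates 1 and 3, 233 in WT replicate 2, and 5.1, 34.7 and 30.2 in KO cells. Lef1, a partner of Tcf7 in early T cells, passed only in WT replicate 2, at 43.4, and in KO replicates 2 and 3, at 24.9 and 17.4. Neither gene was called, and Tcf7 had no probe in the annotation used here.

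The cytokine receptor chains had another pattern. Il7r, which naive and memory T cells need for survival, read 77.5, 101 and 85.2 in syngeneic cells, 30.3 and 16.6 in WT replicates 1 and 3, 283 in WT replicate 2, and 35.7, 114 and 112 in KO cells. KO replicate 1 was below, and KO replicates 2 and 3 above, all syngeneic arrays. Il7r fell in WT vs syngeneic (-0.78 ± 0.20, adjusted p = 0.0128) and was higher in KO vs WT (0.73 ± 0.20, adjusted p = 0.0259). KO vs syngeneic was -0.05 with a 95% interval from -0.45 to 0.34. The dimmer Il7r probe ILMN_2659739 was not called in KO vs WT (adjusted p = 0.0577). Il2rb, shared by the interleukin 2 and 15 receptors, was at 19.7 to 41.7 in syngeneic cells, 23.3 and 9.8 in WT replicates 1 and 3, 150 in WT replicate 2 and 16.9 to 36.4 in KO cells. The groups overlapped outside WT replicate 2, and no comparison was called.

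Ratios of signals, taken from the probe that stands for each gene, varied among members. Over the 17 members above the limit in both WT replicates 1 and 3, WT replicate 2 had a median of 24.2 times their mean, from 1.08 for Cd8b1 to 33.7 for Bcl11b. Over the 19 members above it on all syngeneic arrays, the KO mean was 2.32 times the syngeneic mean in the median, from 0.90 for Il2rb to 4.64 for Cd6. KO arrays also differed among themselves: KO replicate 3 was highest and KO replicate 1 lowest for 20 of 26 members, an order shown by 20.0% of all genes, with a median ratio between these arrays of 2.78 over 23 members.

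Marker lists of other cell types also differed between the arrays. Leaving out Cd8b1, the summed signal of the module was 9335 to 9394 in syngeneic cells, 3240 and 3182 in WT replicates 1 and 3, 69865 in WT replicate 2 and 11816 to 29126 in KO cells. The NK cell list, with 7 of 10 markers passing, summed to 9406 to 9809, to 9305 and 7510, to 33413 and to 12750 to 17526 in the same order. Most of that sum was Nkg7, at 8624 to 9043 in syngeneic and 11932 to 16372 in KO cells, whereas Klrd1 was at 285 to 326 and 105 to 236. The NK median, as a log2 difference from the syngeneic mean, was -0.28 and -0.31 in WT replicates 1 and 3, 1.17 in WT replicate 2 and from -0.24 to 0.077 in KO cells. Ncr1 and Gzmb never passed the limit. The erythroid list (8 of 12) was at 63915 to 64946 in syngeneic cells and 10357 and 9478 in WT replicates 1 and 3. It was at 68094 in WT replicate 2 and 1141 to 9040 in KO cells. WT replicate 2 was highest for 5 of the 8 markers but below every syngeneic array for Alas2, Slc4a1 and Hba-a1. There Alas2 was at 1572 against 4192 to 4375, Slc4a1 at 9962 against 18399 to 19773, and Hba-a1 at 35162 against 35983 to 38714. The monocyte and macrophage list (9 of 11) was at 46711 to 48755, at 8232 and 8091, at 2936 and at 12543 to 15362. Most of the syngeneic sum was C1qb and Vcam1. WT replicates 1 and 3 lay below all syngeneic arrays for 7 of the 9 markers. Fcgr1 rose from 373 to 480 in syngeneic cells to 784 and 716 there, and Ccr2 from 1058 to 1113 to 1352 and 1398. WT replicate 2 was lowest for 8 markers but not for Cx3cr1, at 491. The B cell list (6 of 12) ranged from 2112 to 3315 over all arrays, with Pax5 and Cr2 under the limit throughout. Its median log2 difference was -0.98 and -0.99 in WT replicates 1 and 3, 0.32 in WT replicate 2 and from -0.66 to -0.40 in KO cells, while its marker Cd37 was lowest in WT replicate 2, at 809. The summed dendritic cell list (4 of 7) ranged from 882 to 2997. Most of that sum was Bst2, at 520 to 1075 in syngeneic and 1943 to 2909 in KO cells. Siglech was at 166 to 196 in syngeneic and 19.5 to 24.9 in KO cells, and Clec9a and Zbtb46 were also lower in KO cells. The median log2 difference of the list was from -0.65 to -0.58 in KO cells. In KO cells the neutrophil list was at 240688 to 244730, overlapping the syngeneic range of 243152 to 245856. The part of these lists in the T cell values was not tested.

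**Figure D5:**
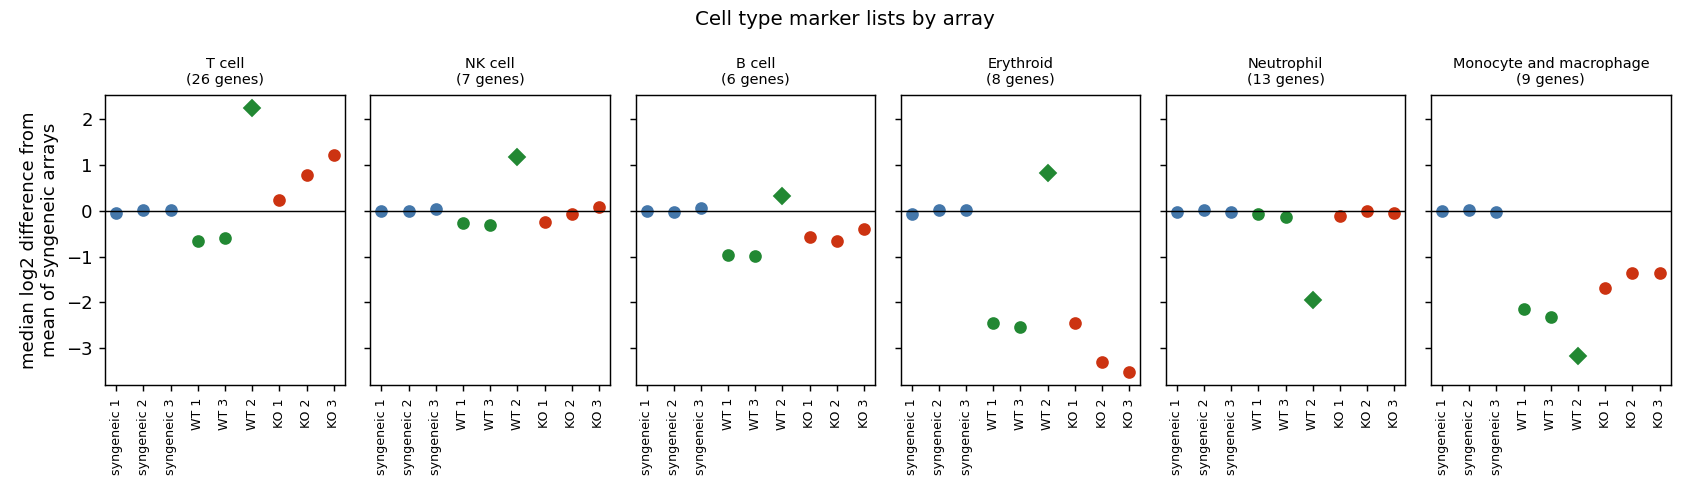
Median log2 difference from the mean of the syngeneic arrays over the tested genes of 6 marker lists, for each array (blue syngeneic, green WT, red KO, with WT replicate 2 as a diamond). In WT replicate 2 the T cell, NK cell, B cell and erythroid medians are the highest of the 9 arrays and the neutrophil and monocyte and macrophage medians the lowest.

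Other genes of receptor signalling, were listed from textbook knowledge. Of 24 listed, 21 were on the array and 19 were tested. With all 9 arrays 0 were called in each comparison, and 0, 2 and 0 had an unadjusted p under 0.05 in KO vs WT, WT vs syngeneic and KO vs syngeneic. Without WT replicate 2, 9 were higher in KO vs WT (10.2% of all genes) and 8 lower in WT vs syngeneic (14.9%). In KO vs syngeneic 5 of 19 were higher (19.3% of all genes) and 1 lower (2170 of 10871 genes). The 5 higher lie near the share over all genes and are not a result about the list. Rasgrp1, an activator of Ras in T cells, was called in all 3, with 1.36 ± 0.17 in KO vs WT (adjusted p = 0.000223), -0.90 ± 0.17 in WT vs syngeneic (adjusted p = 0.00159) and 0.46 ± 0.15 in KO vs syngeneic (adjusted p = 0.0286). Sit1, an inhibitory adaptor, was higher in KO vs WT by 1.24 ± 0.19 (adjusted p = 0.00104). Cd226, an activating receptor of T and NK cells, was higher in KO vs syngeneic by 0.85 ± 0.19 (adjusted p = 0.00388). Sla2, an adaptor that dampens signalling, was at least 2.18-fold higher in KO vs WT (adjusted p = 0.000639). Fyn, a Src family kinase also used by other leukocytes, was the gene that fell in KO vs syngeneic (-0.39 ± 0.12, adjusted p = 0.027). It was also called higher in KO vs WT (0.46 ± 0.14, adjusted p = 0.0366) and lower in WT vs syngeneic (-0.84 ± 0.14, adjusted p = 0.000707).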

How the data were processed

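For each probe on 9 arrays the deposited table holds an intensity with its detection p-value; 0 other columns of sample values were found. The submitters' processing notes name GenomeStudio, with no version or settings in the sources used here. The deposited intensity values had been background-subtracted and brought to the same distribution on every array, as the values show: every array had an upper quartile of 102.1 and a maximum of 47219, and 35.6% of signals were at or below 0. The series matrix holds deposited log2 values, which were within 1.09e-06 of the log2 intensities. The deposited detection p-value followed the signal only in part: of 10281 probes with a p of 0 on all arrays, 850 had a mean signal under the limit of 14.31.

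Intensities were therefore corrected with limma 3.58.1 (R 4.3.3) by normexp with an offset of 50 and quantile-normalized. The limit and this choice followed earlier processing of these data. Gene symbols came from the platform annotation (34885 probes with 1 symbol, 18 with several, 10378 without). The brightest probe above the limit on at least 3 arrays stood for a gene. Log2 values were fitted with limma, 1 mean per group over 9 arrays, moderated by eBayes and adjusted by Benjamini-Hochberg over 10871 genes with a threshold of 0.05. A group with no array above the limit gives a bound ("at least") against the higher of the limit and its own signal on each array. Scripts were tested on simulated data. The number of arrays limits the precision. Members, lists and tests were chosen with earlier results of these data known, and the fits without WT replicate 2 are therefore no independent support. Named genes were all members and, of the other signalling genes, up to 8 called ones with the smallest p. Alternatives covered background correction, normalization, filters, probes per gene, array weights, arrays compared, the replicate block and single arrays left out. Python 3.11.15 and matplotlib 3.10.9 drew the figures.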

Additional observations from a re-analysis of the deposited data

How the results depend on the processing

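The 0 calls over all 9 arrays held under each alternative except array weights, leaving out WT replicate 2 and, for KO vs syngeneic, the fit on the 6 arrays compared (19 higher). Array weights gave 23 members higher in KO vs WT, 15 lower and 1 higher in WT vs syngeneic, and 22 higher in KO vs syngeneic. Leaving out single arrays gave 0 to 21 higher, 0 to 13 lower and 0 to 20 higher, the upper ends all without WT replicate 2. The median log2 fold change of the members in KO vs WT was -0.0052 with neqc, 1.65 with array weights and 1.14 with the series matrix values, and 0.020 to 1.56 with single arrays left out. In WT vs syngeneic it was -0.58 with array weights, -0.020 with the series matrix values, and -0.61 to 0.73 with single arrays left out, the lower end without WT replicate 2. In KO vs syngeneic neqc gave 0.023. Without WT replicate 2, neqc left 2 higher, 0 lower and 1 higher, against 21, 13 and 20, and no background correction left 16, 14 and 14. The cause was not tested. Leaving out a further array gave 17 to 24, 5 to 16 and 16 to 23; without WT replicate 1 or 3 as well, 8 and 5 were lower in WT vs syngeneic, where the lone WT array is assumed to vary like the other groups. These alternatives to the fit without WT replicate 2 were chosen after seeing the data.

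Deviations of same-numbered arrays had correlations from -0.17 to 0.11. With few arrays, and WT replicate 2 apart from its group, these cannot decide whether the numbers pair the samples. What the numbers pair is not stated. With the replicate block 0 members were called in each comparison, and over all genes 21 were higher and 10 lower in KO vs WT, against 128 and 90, 274 and 443 in WT vs syngeneic, against 522 and 613, and 367 and 536 in KO vs syngeneic, against 553 and 745. Over all genes, leaving out WT replicate 2 gave 1114 higher and 1063 lower in KO vs WT, and array weights 1424 and 1543.

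Of 1584 single-gene values under alternatives, 1346 kept direction and side of the threshold, 114 passed it in the same direction, and 124 changed sign, 104 of these with no call on either side. The log2 fold changes that changed sign follow. With neqc, KO vs WT was Cd3d -0.51, Cd3e -0.78, Cd3g -0.48, Cd247 -0.022, Cd4 -0.00076, Zap70 -0.20, Skap1 -0.0053 and Prkcq -0.0072. Further values there were Ubash3a -0.00078, Cd2 -0.061, Cd27 -0.35, Cd28 -0.0062, Cd96 -2.2e-06, Thy1 -0.84, Lef1 -0.00011 and Il7r -0.0037. In KO vs WT, the filter on detection p-values gave Cd247 -0.10. With probes of a gene averaged, KO vs WT was Cd8b1 0.11. In KO vs WT, an offset of 16 gave Trat1 0.016. With array weights, KO vs WT was Trat1 0.54, Gata3 0.31 and Il2rb 0.23. In KO vs WT, no background correction gave Cd96 -0.035 and Lef1 -0.22. With neqc, WT vs syngeneic was Cd3d 0.93, Cd3g 0.91, Cd27 0.51, Thy1 1.28 and Il7r 0.0036. In WT vs syngeneic, array weights gave Cd3e -1.18, Cd247 -0.69, Cd4 -0.12, Zap70 -0.85, Lat -0.12, Skap1 -0.69, Prkcq -0.53 and Ubash3a -0.31. Further values there were Trat1 -0.19, Cd2 -1.11, Cd6 -1.06, Cd28 -0.64, Icos -0.44, Ctla4 -0.024, Cd96 -0.059 and Ms4a4b -0.086. Further values there were Bcl11b -1.08, Lef1 -0.15 and Il2rb -0.23. With probes of a gene averaged, WT vs syngeneic was Cd8b1 -0.32 and Cd27 0.22. In WT vs syngeneic, no background correction gave Skap1 -0.18, Ubash3a -0.038, Cd2 -0.043, Cd28 -0.00019 and Bcl11b -0.30. With the series matrix values, WT vs syngeneic was Skap1 -0.18, Prkcq -0.071, Ubash3a -0.040, Cd2 -0.043, Cd28 -0.00087 and Bcl11b -0.30. In KO vs syngeneic, probes of a gene averaged gave Cd8b1 -0.21. With array weights, KO vs syngeneic was Il7r 0.10 and Il2rb 0.0079. With single arrays left out, members that changed sign are given by their lowest and highest values. For KO vs WT the ranges were Cd3e -0.14 to 2.10, Cd4 -0.20 to 0.47, Prkcq -0.053 to 1.60, Ubash3a -0.17 to 0.57, Trat1 -0.48 to 0.54 and Ctla4 -0.018 to 0.76. Others there ran Cd96 -0.13 to 0.45, Thy1 -0.069 to 2.00, Lef1 -0.12 to 0.27, Gata3 -0.86 to 0.21, Il7r -0.31 to 0.73 and Il2rb -0.54 to 0.21. For WT vs syngeneic the ranges were Cd3d -1.52 to 0.44, Cd3e -1.23 to 1.00, Cd3g -1.48 to 0.73, Cd247 -0.72 to 1.16, Cd4 -0.12 to 0.55 and Zap70 -0.90 to 1.31. Others there ran Lat -0.13 to 0.76, Skap1 -0.74 to 0.78, Prkcq -0.54 to 1.12, Ubash3a -0.34 to 0.40, Trat1 -0.21 to 0.81 and Cd2 -1.16 to 0.86. Others there ran Cd6 -1.12 to 0.98, Cd27 -1.67 to 0.55, Cd28 -0.67 to 0.88, Icos -0.48 to 0.93, Ctla4 -0.052 to 0.73 and Cd96 -0.064 to 0.52. Others there ran Thy1 -1.42 to 0.65, Ms4a4b -0.080 to 0.26, Bcl11b -1.12 to 0.80, Lef1 -0.16 to 0.24, Il7r -0.78 to 0.26 and Il2rb -0.26 to 0.49. For KO vs syngeneic the ranges were Lef1 -0.0086 to 0.30, Il7r -0.19 to 0.22 and Il2rb -0.15 to 0.051. The number of arrays and the dimness of 9 members, not above the limit on all arrays, limit these values.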
